A study of Drosophila melanogaster with 12 samples.

Results

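The digestive serine proteases of Drosophila melanogaster larvae were followed across 4 groups of larvae. Their genes were taken by symbol from the array's annotation: the Jonah genes (Jon), the trypsins named by Greek letters together with Try29F, and the genes named Ser with a number. The rule found 27 genes, of which 13 were Jonah genes, 10 trypsins and 4 Ser genes, each with 1 probe set. They stand among 7442 named genes in a table that the authors normalized with dChip and 11982 in the deposited series matrix. The dChip table held 23 of the 27, which were the 13 Jonah genes, 9 trypsins and Ser6, and none of their values lay under the floor of 16 applied before taking log2. Try29F, Ser7, Ser8 and Ser12 had values in the series matrix alone. The copies gammaTry, deltaTry, Jon99Cii, Jon99Ciii and Jon99Fii were not analysed here, and a probe set for alphaTry, betaTry, Jon99Ci or Jon99Fi may also read a near-identical copy.

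Digestive serine proteases are secreted by midgut cells as inactive precursors and cut food proteins in the gut lumen with a catalytic serine. The genes here were chosen by symbol alone, which does not show that each encodes a digestive enzyme. Trypsins cut after lysine or arginine, and the Jonah genes encode a related family of secreted, chymotrypsin-like proteases of the larval and adult midgut. HNF4 is a nuclear receptor, a transcription factor of the fat body, gut and other organs. The study asked which transcripts of larvae need HNF4.

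RNA of whole larvae was hybridised to 12 one-colour Affymetrix Drosophila Genome 2.0 arrays, 3 for each group. Starved mutants and fed mutants carried a pair of deletion alleles, HNF4(del33)/HNF4(del17). Starved controls and fed controls carried precise excisions of the P-elements EP2449 and KG08976 in trans. Larvae were taken as late L2, either kept on food or starved on wet paper for 24 h, and RNA came from animals that looked healthy and had moulted to L3. Samples were prepared in triplicate, but the labels do not say whether from separate cultures, so p-values measure only the spread between these samples, which may be technical.

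The Hnf4 probe set read 2784, 2938 and 3190 in starved mutants, 1736, 1818 and 1937 in starved controls, 1641, 1540 and 1482 in fed mutants, and 1327, 1207 and 1228 in fed controls. Whether the deletions remove the sequence read by its probes is not stated in the labels, so it does not check the genotype. Array medians ran between 483 and 552 intensity units over the 12 arrays. Of 8 midgut markers 5 were measured: mex1, Peritrophin-15a, Peritrophin-15b, Vha100-4 and GATAe. In RNA of whole larvae they do not show in which cells the proteases were expressed. The summed intensity of the 5 markers ran from 41297 to 45858 in starved mutants, 44175 to 47151 in starved controls, 28738 to 31085 in fed mutants and 27338 to 29025 in fed controls. Most of it came from Peritrophin-15a and Peritrophin-15b, with means of 22486 and 14180 in starved mutants.

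The protease transcripts were among the brightest on the arrays. By mean over the 12 arrays, 4 of the 23 lay in the brightest 1% of probe sets and 13 in the brightest 5%. Together they held 1.23% to 1.71% of the summed intensity of an array. The values of all 23 on every array are shown in the plot by group, where points within a gene can be compared but not heights between genes, because each probe set has its own brightness.

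**Figure D1:**
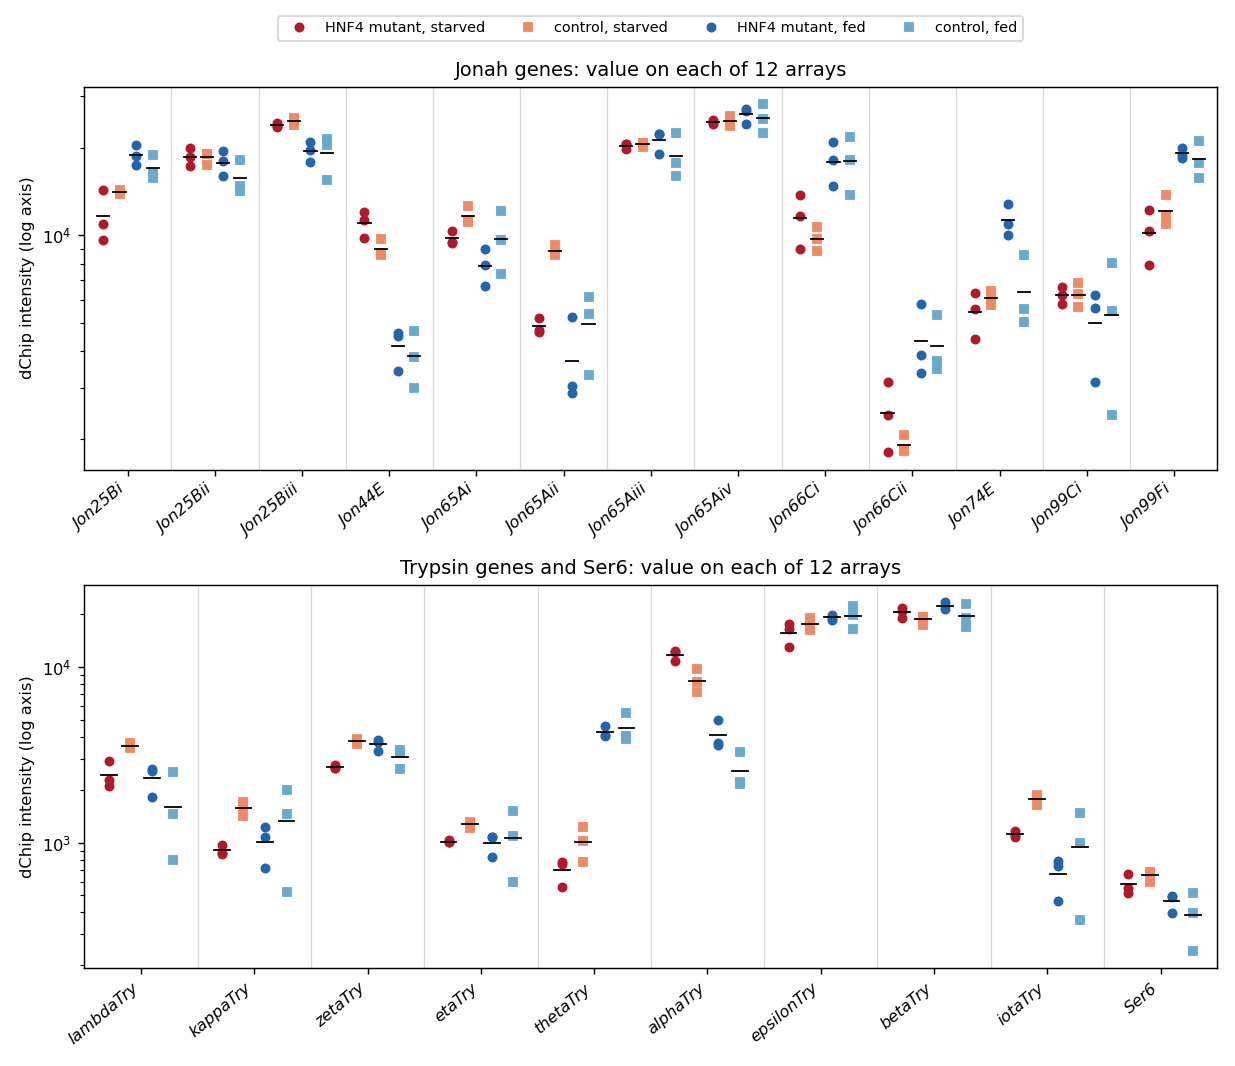
Intensity in the dChip table (log axis) of the 13 Jonah genes (top) and of the 9 trypsins and Ser6 (bottom), with 1 point per array and a bar at the mean of the 3 arrays of a group. The starved arrays stand apart from the fed arrays of the same genotype for alphaTry, thetaTry and Jon44E, while Jon65Aiv, betaTry and Jon65Aiii lie close together in all 4 groups.

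In each fed group 1 array stood apart for the proteases. Replicate 2 of the fed mutants and replicate 3 of the fed controls each held the lowest value of their group for 22 of the 23 genes, alphaTry and thetaTry being the exceptions. Over all 9669 probe sets those arrays were lowest for 30.2% and 32.4%. The median deviation of the 23 genes from their group mean was -0.16 on the log2 scale on the mutant array and -0.29 on the control array, against 0.022 and 0.025 for all probe sets. Of 33 other serine proteases measured, 22 and 23 were lowest there, and of the 5 midgut markers 2 and 1 were. Of 10 digestive carbohydrases 8 and 6 were lowest, with median deviations of -0.21 and -0.36. Of 13 carboxypeptidases 7 and 7 were, of 11 cathepsins and aspartic proteases 6 and 5, and of 8 aminopeptidases 3 and 3. The low values on these arrays were thus not particular to serine proteases. The median SD of the 23 genes within a group was 0.10 log2 units in starved mutants, 0.10 in starved controls, 0.19 in fed mutants and 0.33 in fed controls, and over all probe sets it was 0.11, 0.09, 0.12 and 0.16 in the same order.

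The same arrays were also lowest for Lsp2, a larval serum protein gene of the fat body that is switched on during L3. It was named after its values were seen. Lsp2 read 287, 374 and 305 in starved mutants and 331, 370 and 328 in starved controls, against 13857, 328 and 780 in fed mutants and 18373, 16372 and 290 in fed controls. It was the only 1 of 6 fat body markers in the dChip table. In the series matrix Fbp2, another larval fat body gene, read 8431, 10.0 and 131 in fed mutants and 8480, 8790 and 65.7 in fed controls, and Fbp1 stayed at 13.1 or below in all 6 fed arrays. Whether the protease values and the fat body genes have a shared cause was not tested.

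**Figure D2:**
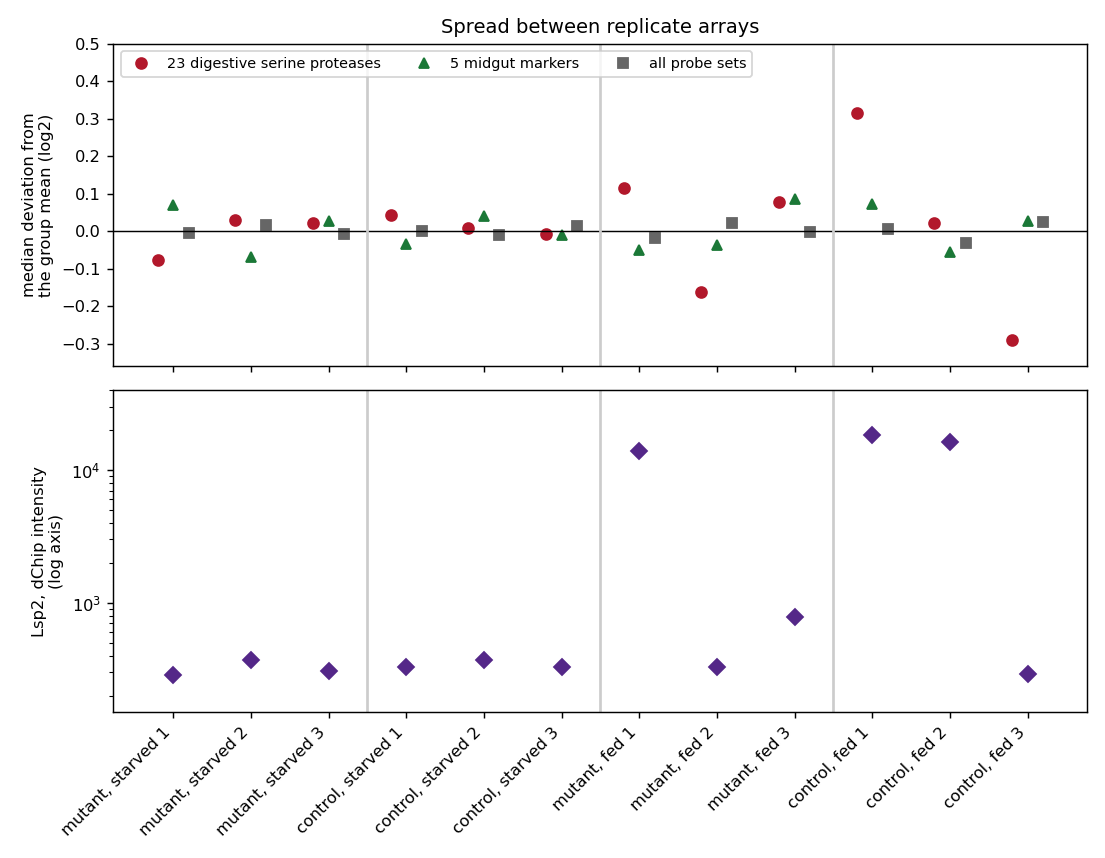
Top, median deviation from the group mean on the log2 scale for the 23 digestive serine proteases, 5 midgut markers and all 9669 probe sets on each of the 12 arrays; bottom, intensity of Lsp2 (log axis). Fed mutant replicate 2 and fed control replicate 3 have the lowest protease deviation of their group, -0.16 and -0.29, and the lowest Lsp2 of their group, 328 and 290.

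Starvation moved individual proteases in opposite directions in both genotypes. In mutants 3 of the 23 rose and 7 fell, a share to be read against 75.7% of all probe sets called in that comparison (37.5% higher, 38.3% lower). In controls 8 rose and 4 fell, against 68.2% of all probe sets (36.1% higher, 32.1% lower). The called members, 10 and 12 of 23, were thus fewer than the background share in both genotypes. A call is an adjusted p under 0.05 in limma (Benjamini-Hochberg over all 9669 probe sets), and each difference is starved minus fed in log2 units with its standard error. With each array centred on its median, the control split was 6 higher and 5 lower.

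The median difference of the 23 genes was -0.06 in mutants, against -0.04 over all probe sets, and 0.30 in controls, against 0.03 over all probe sets. The control value rested on fed control replicate 3: without that array 12 of the 23 control differences were negative and their median was -0.02, against 0.04 over all probe sets. The arrays of starved and fed larvae did not overlap for 14 genes in mutants and 13 in controls, where 80.6% and 72.4% of all probe sets were without overlap. Of the genes called, 8 were shared by the genotypes, 8 of 10 in mutants and 8 of 12 in controls. Among these 8, 7 moved the same way and zetaTry moved in opposite directions, but the calls of zetaTry, Jon25Biii and Jon66Ci were not kept under every setting. In whole larvae, fewer cells of a type and less RNA per cell cannot be told apart. Food state also cannot be told apart from progress within L3, which the labels do not give. The midgut markers rose over the same comparisons, 4 of 5 in each genotype and 0 falling by limma, with median differences of 0.80 in mutants and 1.05 in controls, and their part in the protease values was not tested.

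Among the trypsins, alphaTry rose most. It read 12168, 10817 and 12347 in starved mutants against 3594, 3705 and 4996 in fed mutants, and 8229, 9721 and 7224 in starved controls against 3304, 2213 and 2163 in fed controls. No starved array fell within the range of the fed arrays in either genotype. The differences were 1.54 ± 0.18 in mutants (2.90-fold higher, limma adjusted p = 1.81e-05) and 1.73 ± 0.18 in controls (3.32-fold higher, adjusted p = 1.23e-05).

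Its neighbour on the chromosome, thetaTry, fell most. It read 561, 752 and 778 in starved mutants against 4608, 4063 and 4103 in fed mutants, and 1234, 778 and 1021 in starved controls against 3899, 5462 and 4077 in fed controls. All starved arrays were below all fed arrays. thetaTry fell by 2.62 ± 0.19 on the log2 scale in mutants (6.16-fold lower, limma adjusted p = 4.37e-07) and fell by 2.16 ± 0.19 in controls (4.46-fold lower, adjusted p = 3.21e-06). In the series matrix the differences were -3.09 and -2.93.

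lambdaTry passed the threshold in controls and not in mutants. It read 2285, 2914 and 2099 in starved mutants against 2636, 1818 and 2569 in fed mutants, overlapping ranges with a difference of 0.06 ± 0.32 (95% interval -0.65 to 0.78). In starved controls it read 3558, 3709 and 3455 against 2540, 1460 and 796 in fed controls, a rise of 1.32 ± 0.32 (2.49-fold, limma adjusted p = 0.00412). The 3 starved control arrays lay close together and above the 3 widely spread fed arrays, and in the series matrix the rise of 1.31 missed the threshold (adjusted p = 0.0554). iotaTry, the trypsin outside the row of adjacent genes, read 1166, 1103 and 1073 in starved mutants against 782, 468 and 736 in fed mutants, without overlap but not past the threshold (0.79 ± 0.39, adjusted p = 0.0890). It rose in controls, reading 1637, 1861 and 1823 in starved controls against 1478, 999 and 364 in fed controls (1.12 ± 0.39, adjusted p = 0.0253). That call was lost in the series matrix (adjusted p = 0.102), with the compared groups alone (0.0644) and without starved control replicate 2 (0.0618) or 3 (0.0605), and without fed control replicate 3 the difference was 0.54 (adjusted p = 0.0431).

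The remaining trypsins were not called between starved and fed larvae. epsilonTry and betaTry, both among the brightest probe sets, had differences of -0.30 and -0.12 in mutants and -0.14 and -0.05 in controls, and kappaTry and etaTry had -0.12 and 0.04 in mutants and 0.45 and 0.36 in controls. None of these 8 values passed the threshold. Try29F read 77.0, 176 and 94.7 in starved mutants against 436, 152 and 719 in fed mutants, and 177, 108 and 182 in starved controls against 412, 465 and 128 in fed controls, in the series matrix. The ranges overlapped in both genotypes, with fed mutant replicate 2 and fed control replicate 3 the low arrays again. Its differences of -1.74 ± 0.66 in mutants and -0.94 ± 0.66 in controls did not pass (limma adjusted p = 0.0790 in mutants and 0.357 in controls over 18769 probe sets). Without those 2 fed arrays they were -2.36 and -1.53 (adjusted p = 0.00476 and 0.0325).

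Among the Jonah genes, 2 rose and 5 fell in mutants, and 3 rose and 3 fell in controls. Jon44E, the only Jonah gene measured on 2R, rose in both. It read 11253, 9791 and 12000 in starved mutants against 4615, 3412 and 4528 in fed mutants, and 8730, 9725 and 8529 in starved controls against 4699, 3831 and 2996 in fed controls. The starved arrays were all above the fed arrays, by 1.40 ± 0.16 in mutants (2.65-fold, limma adjusted p = 1.76e-05) and 1.25 ± 0.16 in controls (2.38-fold, adjusted p = 6.40e-05).

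Jon25Biii, on 2L, rose less. It read 23546, 24306 and 23754 in starved mutants against 20861, 17805 and 19676 in fed mutants, and 23907, 24847 and 25350 in starved controls against 21487, 20351 and 15481 in fed controls. Again no starved array reached down to the fed ones. The differences were 0.30 ± 0.11 in mutants (limma adjusted p = 0.0314) and 0.38 ± 0.11 in controls (adjusted p = 0.0108). Both calls were lost in the series matrix (adjusted p = 0.0561 in mutants and 0.206 in controls) and under median centring (0.221 and 0.0537). The mutant call was also lost without any 1 of the starved mutant arrays or without fed mutant replicate 2 or 3 (adjusted p up to 0.111), and the control difference was 0.24 without fed control replicate 3. Of its adjacent copies, Jon25Bii differed by 0.07 ± 0.11 in mutants and 0.25 ± 0.11 in controls, neither past the threshold (adjusted p = 0.0619 in controls), and Jon25Bi fell by 0.71 ± 0.13 in mutants (adjusted p = 0.000528) and had a difference of -0.27 ± 0.13 in controls (adjusted p = 0.0886).

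Jon66Ci and Jon66Cii, adjacent genes on 3L, fell together. Jon66Ci read 8945, 11689 and 13772 in starved mutants against 20847, 14724 and 18069 in fed mutants, and 10691, 8805 and 9694 in starved controls against 21775, 18202 and 13796 in fed controls. The groups did not overlap, and it fell by 0.65 ± 0.20 in mutants (limma adjusted p = 0.0106, but 0.179 in the series matrix) and by 0.86 ± 0.20 in controls (adjusted p = 0.00253). Jon66Cii read 1801, 2410 and 3138 in starved mutants against 5790, 3368 and 3873 in fed mutants, and 2066, 1834 and 1819 in starved controls against 5326, 3691 and 3478 in fed controls. It fell by 0.82 ± 0.24 in mutants (adjusted p = 0.00850) and by 1.10 ± 0.24 in controls (adjusted p = 0.00186), with no overlap in either, and in the series matrix by 1.39 and 1.67.

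Jon99Fi, on 3R, read 7918, 12259 and 10343 in starved mutants against 20009, 18465 and 18853 in fed mutants, and 13726, 11639 and 10910 in starved controls against 21081, 17781 and 15778 in fed controls. All starved arrays were lower than all fed arrays. Jon99Fi fell by 0.93 ± 0.16 in mutants (limma adjusted p = 0.000258) and by 0.59 ± 0.16 in controls (adjusted p = 0.00635). Jon99Ci on the same arm had differences of 0.38 ± 0.37 in mutants and 0.40 ± 0.37 in controls, not past the threshold, with fed values spread between 3146 and 6253 in mutants and between 2417 and 8020 in controls.

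Jon74E fell in mutants. It read 4404, 6348 and 5602 in starved mutants against 10974, 10016 and 12825 in fed mutants, and 6035, 6445 and 5779 in starved controls against 8547, 5595 and 5024 in fed controls. The mutant groups were clearly apart and the control groups overlapped. The fall was by 1.06 ± 0.19 in mutants (2.08-fold lower, limma adjusted p = 0.000422), and the control difference was -0.03 ± 0.19 (95% interval -0.45 to 0.39).

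The 4 adjacent Jon65A genes on 3L gave 1 call. Jon65Aii read 4665, 5217 and 4732 in starved mutants against 5225, 2886 and 3029 in fed mutants, overlapping ranges with a difference of 0.44 ± 0.24 (limma adjusted p = 0.112). In starved controls it read 8572, 9244 and 8734 against 6140, 5389 and 3318 in fed controls, a rise of 0.89 ± 0.24 (adjusted p = 0.00707) with no overlap. In the series matrix the control difference was 0.81 and missed the threshold (adjusted p = 0.106). Jon65Ai, Jon65Aiii and Jon65Aiv had differences of 0.32, -0.06 and -0.09 in mutants and 0.30, 0.15 and -0.03 in controls, none past the threshold.

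Of the Ser genes, Ser6 read 517, 665 and 554 in starved mutants against 500, 397 and 492 in fed mutants, separate ranges with a difference of 0.32 ± 0.22 (limma adjusted p = 0.209). It rose in controls, reading 685, 597 and 680 in starved controls against 519, 397 and 243 in fed controls (0.82 ± 0.22, adjusted p = 0.00704), and by 0.52 without fed control replicate 3 (adjusted p = 0.0118). Ser7 in the series matrix read 60.3, 20.4 and 36.3 in starved mutants against 43.9, 33 and 44 in fed mutants, and 40.1, 53.4 and 59.6 in starved controls against 7.0, 5.6 and 30.1 in fed controls. Its control difference of 1.35 passed the threshold there (limma adjusted p = 0.0305), but it rests on 2 fed values under the floor of 16 and depends on that floor. The call was also lost with quantile normalization (0.0789), with median centring (0.0723) and without starved control replicate 2 (0.0864) or 3 (0.0953) or fed control replicate 1 (0.0945) or 2 (0.0995). Ser8 and Ser12 stayed between 26.0 and 98.4 on all 12 arrays in that table, and neither had a called difference in any comparison. Among all 18769 probe sets of the series matrix 31.6% were called between starved and fed mutants, 28.3% between starved and fed controls, 2% between starved genotypes, 0.336% between fed genotypes and 0.139% in the difference of the responses.

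**Figure D3:**
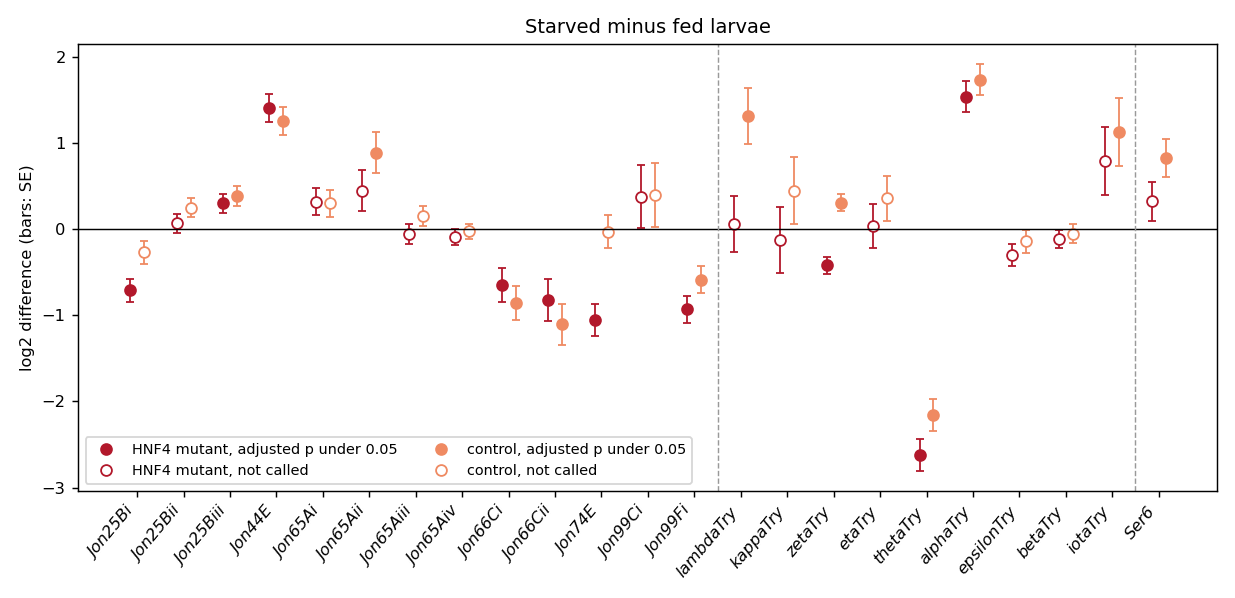
Starved minus fed difference (log2, bars: SE of the limma fit) of the 13 Jonah genes, 9 trypsins and Ser6 in mutants and controls; filled points have an adjusted p under 0.05. alphaTry and Jon44E lie high and thetaTry low in both genotypes, and zetaTry lies below 0 in mutants and above 0 in controls.

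The starvation responses of the genotypes were then set against each other in 1 interaction contrast, mutant response minus control response. Over all probe sets 2.59% were called (1.82% higher, 0.765% lower), and 1 of the 23 proteases was. It was zetaTry, a trypsin in the middle of the row of adjacent genes. It read 2785, 2671 and 2669 in starved mutants, 3650, 3822 and 3879 in starved controls, 3766, 3311 and 3832 in fed mutants, and 3222, 3380 and 2624 in fed controls. The starved mutants were low and close together, below every other array but 1 fed control. zetaTry fell by 0.42 ± 0.098 with starvation in mutants (limma adjusted p = 0.00238) and rose by 0.31 ± 0.098 in controls (adjusted p = 0.0165). The mutant call was lost in the series matrix (adjusted p = 0.111). The control call was lost there (0.303), with quantile normalization (0.0914), with median centring (0.106) and without starved control replicate 3 (0.0522) or fed control replicate 3, where the difference was 0.20 (0.0563). The difference between the responses was -0.73 ± 0.14 (adjusted p = 0.0250). This call was not kept with the series matrix (-0.73, adjusted p = 0.411), with the replicate number as a block (adjusted p = 0.0529) or without any 1 of 6 arrays, while without fed control replicate 3 and fed mutant replicate 2 the difference was -0.69 (adjusted p = 0.0141).

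The other 22 proteases did not pass that contrast, and 4 of the 23 had an unadjusted p under 0.05. Besides zetaTry these were Jon74E at -1.02 ± 0.27 (limma adjusted p = 0.0765), lambdaTry at -1.26 ± 0.46 (adjusted p = 0.181) and Jon25Bi at -0.44 ± 0.19 (adjusted p = 0.249). All 9 trypsins had a negative difference, from -1.26 to -0.06 with a median of -0.34, where the median over all probe sets was -0.02. The count changed with the table used, to 7 of 9 negative in the series matrix. It also changed with the arrays kept: without fed control replicate 3, 6 of the 9 were negative, with a median of -0.05. The latter fit kept fed mutant replicate 2, the lowest of its group for 8 of the 9 trypsins. Without both arrays the median starvation difference of the trypsins was -0.15 in mutants and -0.02 in controls. Of the 13 Jonah genes 9 were negative in the dChip table, with a median of -0.09, and 5 of 13 in the series matrix.

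Between starved mutants and starved controls, 7.61% of all probe sets were called (3.91% higher, 3.7% lower) and 1 of the 23 proteases, zetaTry. Its arrays, given above, did not overlap, and it was lower in starved mutants by -0.48 ± 0.098 on the log2 scale (1.40-fold lower, limma adjusted p = 0.0131). Without starved mutant replicate 3 or starved control replicate 3 the adjusted p was 0.0549 or 0.0604, and in the series matrix 0.253, with differences of -0.47, -0.46 and -0.52. The midgut markers gave 0 calls between the genotypes, at any food state, with median differences of -0.04 in starved and 0.03 in fed larvae.

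Jon65Aii had the largest difference of the 23 between starved mutants and starved controls. Its 3 values in starved mutants, 4665 to 5217, were all below its 3 in starved controls, 8572 to 9244, a difference of -0.86 ± 0.24 (1.82-fold lower). The adjusted p of 0.0535 in limma missed the threshold. It passed under 9 of 24 alternative settings, among them quantile normalization (0.0409) and a fit of the starved groups alone (0.00131). The 95% interval of the difference was -1.39 to -0.33.

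In all, 10 of the 23 genes had no overlap between starved mutants and starved controls, and 29.7% of all probe sets had none. These were 7 of 9 trypsins and 3 of 13 Jonah genes. alphaTry and Jon44E were the higher ones, by 0.50 ± 0.18 and 0.29 ± 0.16. Besides zetaTry and Jon65Aii the lower ones were kappaTry at -0.80 ± 0.38, iotaTry at -0.67 ± 0.39, lambdaTry at -0.57 ± 0.32, thetaTry at -0.53 ± 0.19, etaTry at -0.33 ± 0.26 and Jon65Ai at -0.26 ± 0.16. Their limma adjusted p-values ran from 0.121 for thetaTry to 0.564 for etaTry. The standard errors come from the spread over all 4 groups, and for kappaTry, iotaTry and etaTry the fed controls spread widely, from 526 to 1999, 364 to 1478 and 594 to 1520. With the starved groups fitted alone, 7 of the 23 were called (1 higher, 6 lower). The share of all probe sets called in that fit is not given here, so this count cannot be read against a background. The median difference was -0.48 over the 9 trypsins and -0.02 over the 13 Jonah genes, against -0.01 over all probe sets.

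Between fed mutants and fed controls none of the 23 proteases was called by limma, where 1.05% of all probe sets were (0.186% higher, 0.869% lower). Unadjusted, 3 of the 23 had a p under 0.05. Jon74E was higher in each of the fed mutants, at 10016 to 12825, than in the fed controls, at 5024 to 8547, a difference of 0.85 ± 0.19 (1.80-fold, adjusted p = 0.0733). alphaTry was likewise without overlap, at 3594 to 4996 in fed mutants and 2163 to 3304 in fed controls (0.69 ± 0.18, adjusted p = 0.136). No other of the 23 was free of overlap, as were 13.6% of all probe sets, and in the series matrix Ser7 was (1.02 ± 0.39, adjusted p = 0.536). The third gene was zetaTry at 0.25 ± 0.098 (adjusted p = 0.375). For Jon65Aiv the 95% interval of the difference was -0.15 to 0.24, and for lambdaTry, whose fed control values ran from 796 to 2540, it was -0.03 to 1.40.

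**Figure D4:**
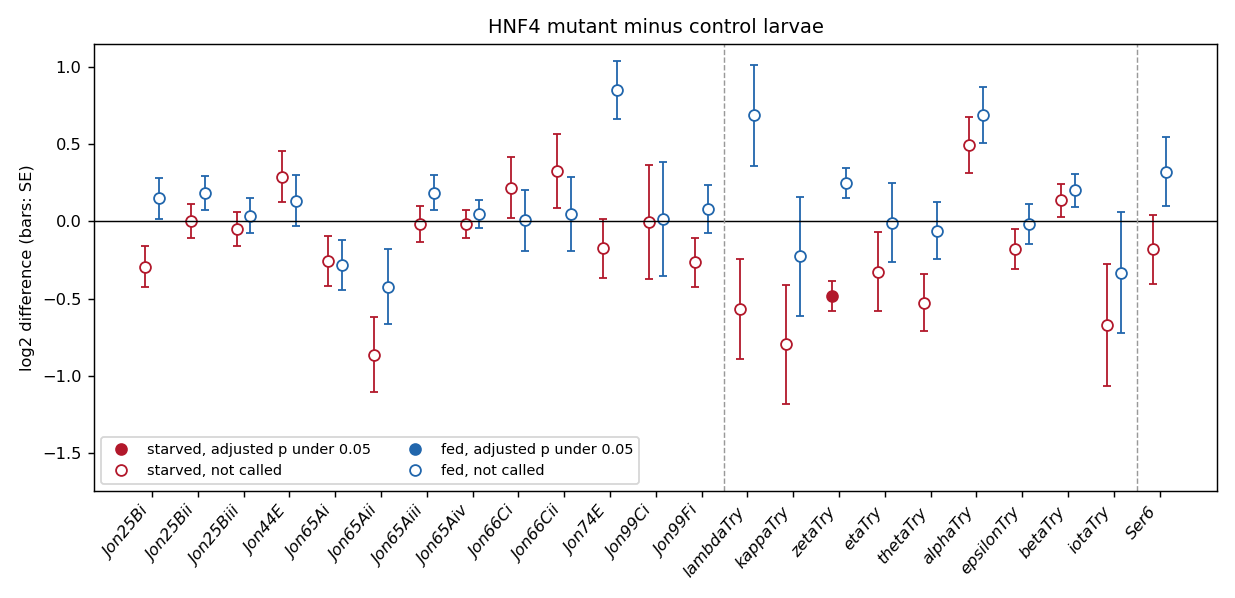
Mutant minus control difference (log2, bars: SE of the limma fit) of the 23 digestive serine proteases in starved and in fed larvae; filled points have an adjusted p under 0.05. zetaTry in starved larvae, at -0.48, is the only filled point, and the trypsins other than alphaTry and betaTry lie below 0 in starved larvae.

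Taken gene by gene, the Jonah genes and the trypsins were split in direction with starvation and between genotypes, unevenly in some comparisons. In the difference of responses all 9 trypsins were negative and 4 of 13 Jonah genes were positive. Between starved mutants and starved controls 4 of 13 Jonah differences and 2 of 9 trypsin differences were positive. With starvation 6 of 13 Jonah differences and 4 of 9 trypsin differences were positive in mutants (medians -0.06 and -0.12), and 7 of 13 and 6 of 9 in controls (medians 0.15 and 0.36). Without fed control replicate 3 the control medians were -0.09 for the Jonah genes and -0.02 for the trypsins. Between fed mutants and fed controls 11 of 13 Jonah differences were positive with a median of 0.05, but 6 of 13 in the series matrix and 4 of 13 without fed control replicate 3, and 4 of 9 trypsin differences were positive with a median of -0.01. The fit without fed control replicate 3 kept fed mutant replicate 2, the lowest of its group for all 13 Jonah genes, so that count is tilted toward negative differences.

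By RefSeq's Release 6 annotation, used here for the order of genes alone, 8 of the measured trypsins lie side by side on chromosome arm 2R in the order lambdaTry, kappaTry, zetaTry, etaTry, thetaTry, alphaTry, epsilonTry and betaTry. Adjacent trypsins did not all share a response. thetaTry and alphaTry are adjacent and had the lowest and the highest starvation difference of the 23 in both genotypes, while epsilonTry and betaTry next to them were not called. On 2L Jon25Biii, Jon25Bii and Jon25Bi are adjacent, and in mutants Jon25Biii rose and Jon25Bi fell.

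Starvation differences were also set beside brightness. The 9 genes at 10000 or more in fed controls had a median absolute starvation difference of 0.30 in mutants and 0.25 in controls, while the 14 dimmer genes had 0.43 and 0.85. In mutants 4 of the 9 and 6 of the 14 were called, and in controls 3 of the 9 and 9 of the 14, and the bright genes Jon99Fi, Jon25Bi and Jon66Ci fell in mutants by 0.93, 0.71 and 0.65. The 99th percentile of an array lay between 18999 and 21145, and Jon65Aiv was above it on all 12 arrays. Whether signals near the top of the range are compressed was not tested.

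Other proteases and carbohydrases, not all of them digestive, were counted from lists written with earlier results of these data known. Their starvation counts are read against the 75.7% of all probe sets called between starved and fed mutants and the 68.2% between starved and fed controls. Read so, they say nothing particular to a list. Of 33 other serine proteases measured out of 59, 9 rose and 12 fell with starvation in mutants, and 10 rose and 8 fell in controls. The largest rise was that of CG12951, which read 4820, 4627 and 5213 in starved mutants against 89.8, 87.0 and 113 in fed mutants, and 4936, 5265 and 5797 in starved controls against 557, 334 and 172 in fed controls. That is a rise of 5.67 in mutants and 4.07 in controls. Phae2 and Phae1, a pair of related proteases, rose by 2.22 and 1.60 in mutants and by 2.50 and 1.69 in controls. Between fed genotypes 3 of the 33 were called, all lower in mutants, against 1.05% of all probe sets (0.869% lower). These were CG12951, CG17477 and CG31269, by -1.73, -1.71 and -0.93. Fed control replicate 3 was the lowest fed control for each of them. In starved mutants CG17477 was lower by -0.99 and CG11529 higher by 1.07, where 7.61% of all probe sets were called. In the difference of the responses CG11529 was called at 0.95 and CG17475 at -1.14, where 2.59% of all probe sets were called.

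The other enzyme lists were mixed as well. Of 13 carboxypeptidases, which trim proteins from the carboxyl end, 3 rose and 7 fell in mutants, and 4 rose and 5 fell in controls. CG8562 and CG4408 were lower in starved mutants than in starved controls, by -0.58 and -0.49, where 7.61% of all probe sets were called. Of 8 aminopeptidases, which trim from the amino end, 2 rose and 5 fell in mutants, and 3 rose and 3 fell in controls, with CG31445 rising by 2.00 in mutants and 2.23 in controls. Of 11 cathepsins and aspartic proteases 6 rose and 3 fell in each genotype. Among them Bace, an aspartic protease gene, rose by 4.18 in mutants and 3.98 in controls, and CG17134 fell by 2.51 in mutants and fell by 2.81 in controls. Of 10 digestive carbohydrases 6 rose and 4 fell in mutants, and 6 rose and 3 fell in controls, and the amylase-related gene Amyrel rose by 3.25 in mutants and 3.57 in controls.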

How the data were processed

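Values come from 12 arrays, 3 per group, with groups taken from the sample labels. The main table holds linear intensity that the authors normalized with dChip for probe sets called Present, per the file headers. The dChip version and the Present rule are not given in the sources used here. The series matrix holds deposited intensity of 18769 probe sets, 183 control probe sets left out, by an unstated method. The 12 columns matched their own sample best between both tables. Precision is limited by the number of arrays.

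Deposited values below 16 were set to 16 before log2, and no probe set was filtered out. limma 3.58.1 in R 4.3.3 estimated the 4 group means from the 12 arrays together with lmFit and eBayes (3.12 prior and 8 residual degrees of freedom), and p-values were adjusted by Benjamini-Hochberg within a contrast, with a threshold of 0.05. Errors are standard errors of this fit unless marked SD. The code was tested on simulated data. Each gene was read by its brightest probe set. Any member could be named, with full values for those called between genotypes or in the difference of responses and for the 3 largest rises and 3 largest falls with starvation, and of each other list up to 3 called members with the largest change. Members and lists were chosen with earlier results of these data known, and the list of other serine proteases was written after the array's gene names had been seen. Of the fixed lists, gut regulators (10 measured), muscle (5), neuron (3), hemocyte (6) and salivary gland markers (4) are given among the other observations. Protein and promoter sequences were not used here. Median levels per array of the Jonah genes and trypsins were computed but are not reported, since they fall on different probe sets on different arrays. Same-numbered arrays of different groups had correlated deviations over 0.1 in 5 of 18 pairs (range -0.40 to 0.28), so numbers were not taken as pairs.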

Additional observations from a re-analysis of the deposited data

Results flagged for a closer look

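zetaTry was flagged because the test of the difference between the starvation responses of the genotypes passed the threshold. Among the 23 proteases it was the only call, and 2.59% of all probe sets were called in that contrast. The difference for zetaTry was -0.73 ± 0.14 on the log2 scale (limma adjusted p = 0.0250, n = 3 arrays per group). It came from a response of -0.42 in mutants and 0.31 in controls. All 3 starved mutant arrays were below all 3 fed mutant arrays, and all 3 starved control arrays were above all 3 fed control arrays. Over the 24 alternative settings the difference ran from -0.80 to -0.62 and the adjusted p from 0.00391 to 0.411, past the threshold in 16. Some of these settings could not move zetaTry, which has 1 probe set and no value under 64. A fit of the groups compared also keeps all 4 groups here. The 16 thus include repeats of the main fit and overstate how often the call was kept. The control response alone was past the threshold in 19 of 24 settings and the mutant response in 23.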

How the results depend on the processing

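The 5 counts of called proteases and the value of each gene were recomputed from the series matrix, with a floor of 1 or 64, after median centring or quantile normalization, and without the dimmest 40% of probe sets. Further fits used the replicate block, array weights, a robust trended eBayes, only the groups compared or the mean over the probe sets of a gene, or left out 1 array at a time. Each member had 1 probe set, so the mean over probe sets repeated the main fit for the members. For the difference of responses the groups compared were all 4, which repeated it too. Chosen after seeing the data was a fit without fed control replicate 3 and fed mutant replicate 2. Of 3210 gene values under these settings, 597 belonged to the 25 called differences, of which 39 lost the call, 12 moved by over 1.5 times and 0 changed sign. Of the values that were not called, 76 gained a call and 141 changed sign, over 47 of 110 differences. Ser7 gave no value at a floor of 64.

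Between fed mutants and fed controls the count was 0, but 2 with array weights, and 0 to 2 without single arrays (2 without fed control replicate 1). Between starved mutants and starved controls it was 1, but 0 with the series matrix, 2 with quantile normalization, 2 without the dimmest 40%, 2 with the replicate block, 9 with array weights, 7 with the compared groups alone, 4 without both fed arrays, and 0 to 3 without single arrays. For starvation in mutants it was 10, with 7 in the series matrix, 15 with array weights, and 9 to 14 without single arrays. In controls it was 12, but 7 in the series matrix, and 10 to 16 without single arrays (16 without fed control replicate 1). For the difference of responses it was 1, but 0 with the series matrix, 0 with the replicate block, 4 with array weights, and 0 to 3 without single arrays. The block changed no other count. The share of all probe sets called under each alternative setting is not given here. Whether the proteases changed more than the background therefore cannot be read from these counts. The cause of these changes was not tested. Median centring moved the median of all probe sets in starved against fed mutants to -0.17, against -0.04 without it. Dim values limit Ser7, Ser8 and Ser12, and 3 arrays per group limit every call.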

Other observations

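Regulators linked to gut gene expression were read on the same arrays. Of 10 measured, 9 rose and 1 fell with starvation in each genotype. Over all probe sets 37.5% rose and 38.3% fell in mutants, and 36.1% rose and 32.1% fell in controls. The list includes Hnf4, the mutated gene, and GATAe, which is also among the midgut markers. GATAe, a GATA factor of the midgut, rose by 1.07 in mutants and 1.17 in controls, and foxo, the transcription factor restrained by insulin signalling, rose by 1.29 in mutants and 0.94 in controls. sug (sugarbabe), a zinc finger factor induced by dietary sugar, read 187, 217 and 128 in starved mutants against 692, 1093 and 947 in fed mutants, and 472, 373 and 346 in starved controls against 1551, 1006 and 1003 in fed controls. It fell by 2.37 in mutants and fell by 1.56 in controls, and was lower in starved mutants than in starved controls by -1.18. Hnf4 was the other regulator called between starved genotypes, at 0.70 ± 0.080 (limma adjusted p = 0.000397), where 7.61% of all probe sets were called.

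Against 75.7% and 68.2% of all probe sets called in mutants and controls, counts of called markers say nothing particular to a tissue. Of 6 hemocyte markers 5 fell with starvation in each genotype and 0 rose, led by PPO1, a prophenoloxidase gene, which fell by 2.49 in mutants and fell by 1.95 in controls. Of 5 muscle markers 2 fell in mutants and 1 in controls, of 3 neuron markers 2 fell in mutants and 1 in controls, and of 4 salivary gland markers 4 fell in mutants and 1 in controls, with 0 rising in any of these lists.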
